A study of Mus musculus with 4 samples.

Results

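The Ms4a genes (membrane-spanning 4-domains, subfamily A) encode a family of membrane proteins. Of these, 6 were followed: Ms4a4b, Ms4a4c, Ms4a4d, Ms4a6b, Ms4a6c and Ms4a6d, out of 23284 gene symbols in the tables and 16 that begin with Ms4a. They were taken by symbol, and each had 1 entry. They were chosen by their levels in the present libraries, lower in one sorted population than in the other. The difference between the groups is therefore described without a p-value for any member and supports nothing by itself.

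Ms4a proteins cross the membrane several times and act as adapters or subunits of receptor complexes. The best known relatives are Ms4a1, the B cell surface protein CD20, and Ms4a2, the beta chain of the high-affinity IgE receptor of mast cells and basophils. Ms4a4b is known as a T cell member of the family that associates with the costimulatory receptor GITR and slows T cell proliferation. Ms4a4c, Ms4a6c and Ms4a6d are known from myeloid cells, where they are among the genes that interferon induces, and several family members also serve as receptors in a class of olfactory neurons.

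The cells were CD4 T cells from the spleens of BALB/c mice, an inbred strain, grown under Th1 conditions, which favour interferon-gamma producers, with 15 ng/ml IL-2 and 10 ng/ml IL-12. The labels give 4 days of culture in one place and 5 in another, and name no other agent. Flow sorting then gave a population with much CCR7, the receptor that guides T cells into lymph nodes, and little CD137, a costimulatory receptor induced by activation (CCR7hiCD137lo, 2 libraries), and one with the reverse (CCR7loCD137hi, 2 libraries). All 4 libraries share strain, source and culture, and none of unstimulated cells was analysed here. The labels say nothing of the animals' ages, or of whether the replicates came from separate mice or cultures, so the spread between them may be technical.

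Levels are FPKM, fragment counts scaled by transcript length and library depth, as the authors deposited them, and differences are on the scale log2(FPKM + 1), which understates the change of low genes. The sorted genes followed the labels: Ccr7 was at 93.4 and 118.4 FPKM in the CCR7hiCD137lo libraries and at 39.6 and 38.2 FPKM in the CCR7loCD137hi libraries, and Tnfrsf9, which encodes CD137, at 0.961, 6.25, 158.2 and 183.8 FPKM. Of 8 CD4 T cell markers listed, 7 were measured, and their summed level was 1142 to 1252 FPKM in CCR7hiCD137lo and 1026 to 1284 FPKM in CCR7loCD137hi. Depth, estimated from the spacing of low values, was lower in both CCR7loCD137hi libraries than in both CCR7hiCD137lo libraries. Relative to the deepest, CCR7hiCD137lo replicate 1, it was 0.631 in CCR7hiCD137lo replicate 2. In CCR7loCD137hi replicates 1 and 2 it was 0.564 and 0.306. CCR7loCD137hi replicate 1 stood apart in B cell markers, whose sum was 5.30 FPKM there and 0.0917 to 0.571 FPKM in the other libraries. The members' differences without that library are given beside the marker lists.

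The members lie side by side on chromosome 19 (build mm10) and span 197.1 kb. In order they are Ms4a4c (chr19:11407661-11427246), Ms4a4b (chr19:11443558-11463548), Ms4a6c (chr19:11469368-11482196), Ms4a6b (chr19:11518559-11530403) and Ms4a4d (chr19:11536849-11558466), all on the + strand, and Ms4a6d (chr19:11586606-11604804) on the - strand. Gm8369, a predicted gene on the + strand, sits between Ms4a6c and Ms4a6b at chr19:11492038-11512577.

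The sequences just before the gene starts show which of these neighbours resemble each other, and are printed for the expressed members with an entry among the RefSeq promoters (GRCm38.p6) and for Gm8369. Each is the 250 bases before the annotated start, 5′ to 3′ on the + strand, and capitals mark runs of at least 20 bases that also occur in another promoter of the same set. The first set is Ms4a4b (chr19:11443308-11443557), Ms4a4c (chr19:11407411-11407660) and Gm8369 (chr19:11491788-11492037).
Ms4a4b: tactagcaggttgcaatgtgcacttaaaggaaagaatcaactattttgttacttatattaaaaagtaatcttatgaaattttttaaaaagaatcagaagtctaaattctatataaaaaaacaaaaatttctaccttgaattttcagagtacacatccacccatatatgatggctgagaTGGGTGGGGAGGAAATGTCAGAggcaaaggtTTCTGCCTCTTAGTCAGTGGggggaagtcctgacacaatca
Ms4a4c: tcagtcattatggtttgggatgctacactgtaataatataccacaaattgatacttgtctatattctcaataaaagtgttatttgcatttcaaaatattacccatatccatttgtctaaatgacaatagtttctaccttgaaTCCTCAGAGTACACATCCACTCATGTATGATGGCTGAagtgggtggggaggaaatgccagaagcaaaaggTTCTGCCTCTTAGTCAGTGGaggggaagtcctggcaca
Gm8369: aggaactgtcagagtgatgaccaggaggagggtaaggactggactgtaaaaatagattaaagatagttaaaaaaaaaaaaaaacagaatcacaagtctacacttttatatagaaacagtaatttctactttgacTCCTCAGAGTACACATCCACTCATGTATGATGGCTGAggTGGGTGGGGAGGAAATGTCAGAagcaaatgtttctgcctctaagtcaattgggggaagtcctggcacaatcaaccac

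The second set is Ms4a6b (chr19:11518309-11518558) and Ms4a6c (chr19:11469118-11469367).
Ms4a6b: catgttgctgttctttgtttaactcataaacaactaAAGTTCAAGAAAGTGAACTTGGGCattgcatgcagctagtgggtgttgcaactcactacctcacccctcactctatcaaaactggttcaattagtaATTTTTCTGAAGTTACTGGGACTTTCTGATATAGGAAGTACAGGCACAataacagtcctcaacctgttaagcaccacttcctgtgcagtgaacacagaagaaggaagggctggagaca
Ms4a6c: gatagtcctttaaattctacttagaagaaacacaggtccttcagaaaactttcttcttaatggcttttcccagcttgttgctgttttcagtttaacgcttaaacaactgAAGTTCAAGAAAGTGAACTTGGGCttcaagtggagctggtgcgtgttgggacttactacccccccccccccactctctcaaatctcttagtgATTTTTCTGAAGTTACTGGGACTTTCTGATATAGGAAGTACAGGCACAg

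In global alignment the Ms4a4b and Ms4a4c promoters were 70.9% identical and shared a run of 20 bases, placed 41 and 38 bases before the respective starts. Gm8369 was 70.8% identical to Ms4a4b and 66.1% to Ms4a4c, with runs of 22 and 37 bases in common. The Ms4a6b and Ms4a6c promoters shared runs of 48 and 24 bases, but these lay at different distances from the annotated starts: the run of 48 began 118 bases before the start of Ms4a6b and 49 before that of Ms4a6c. With that offset their identity over the full window was 47.4%. Each of these runs occurred in 2 of the 32851 promoters in the RefSeq table, on either strand. Pairs across the sets, and pairs with Ms4a4d, had identities of 45.0 to 53.0% and runs of 6 to 9 bases in common. By shared runs, Ms4a4b was thus like Ms4a4c and Gm8369, and Ms4a6b like Ms4a6c, whereas Ms4a4d was like none of them. By identity over the full window, Ms4a6b and Ms4a6c were no more alike than pairs across the sets. Ms4a6d had no promoter entry.

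Motifs of 4 kinds were searched on both strands in the 300 bases around the start (250 before and 50 after) of the 5 members with a promoter entry and of Gm8369. The interferon-response core (GAAA, any 2 bases, then GAAA), which 3.44% of all promoters hold, was in 0 of the 6. The interferon-gamma-activated site (TTC, any 3 bases, then GAA, in 8.30% of all promoters) and the T-box site TCACACC (3.98%) were likewise in 0 of the 6. The NF-kB site (GGGA, any 4 bases, then CC) (20.7% of all promoters) was in 2 of the 6, Ms4a4d with matches whose first base is at -71 and -84 from the start and Ms4a6c with 1 at -189. No other motif of the set overlapped these matches. A match is a run of letters, and its absence says only that these letters are not in this window.

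**Figure D1:**
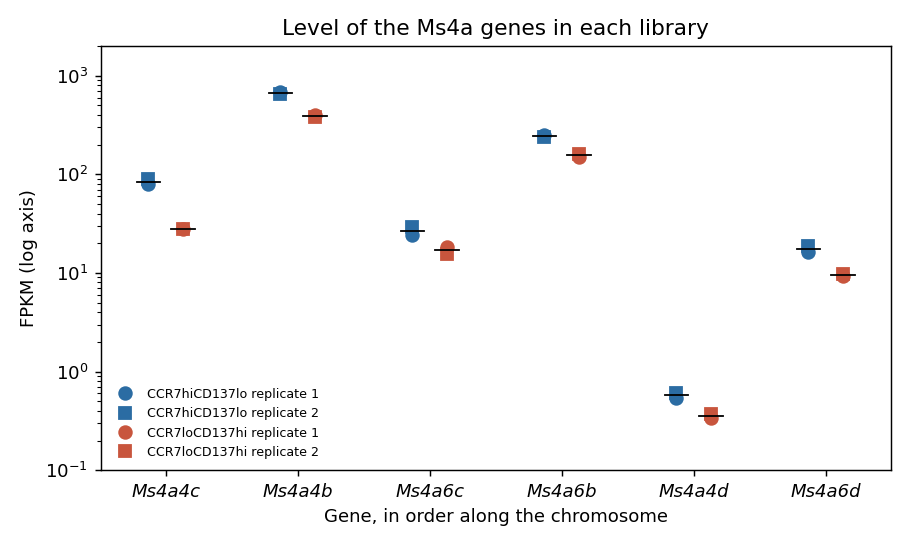
FPKM (log axis) of the 6 Ms4a genes in each library, in order along the chromosome, with circles for replicate 1, squares for replicate 2 and black bars for the mean of each population. Every CCR7loCD137hi point lies below both CCR7hiCD137lo points of its gene, and the levels run from 0.340 FPKM (Ms4a4d) to 681.3 FPKM (Ms4a4b).

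The 6 members covered a wide range of levels. In both populations the order by mean FPKM was Ms4a4b, Ms4a6b, Ms4a4c, Ms4a6c, Ms4a6d and Ms4a4d. The groups of libraries of neighbouring genes in this order did not overlap within either population. Together the 6 summed to 1055 and 1030 FPKM in the CCR7hiCD137lo libraries and to 605.2 and 597.5 FPKM in the CCR7loCD137hi libraries. In bulk RNA, a lower level can come from fewer cells that express the gene or from less RNA per cell, and these cannot be told apart. Ms4a4b alone held 63.6 to 66.2% of that sum in the 4 libraries, and Ms4a4b with Ms4a6b 86.6 to 91.0%.

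Ms4a4b, the T cell adapter, was one of the most abundant transcripts of these cells. Its FPKM was 681.3 and 654.9 in the CCR7hiCD137lo libraries and 400.7 and 382.1 in the CCR7loCD137hi libraries. The groups were well apart, with both CCR7loCD137hi libraries below both of the others. By mean level it ranked 88th of 10496 tested genes in CCR7hiCD137lo and 165th in CCR7loCD137hi. The mean was 668.1 ± 18.7 FPKM against 391.4 ± 13.2 FPKM (SD, n = 2 each), 1.71 times as high in CCR7hiCD137lo, and the log2 difference was -0.77 (SE 0.11). It was -0.76 between the libraries numbered 1 and -0.78 between those numbered 2, while replicates differed by 0.06 and 0.07. Its fragments were not estimated, since no GENCODE transcript has the ends given in the tables.

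Ms4a4c, its close relative, differed most. Its FPKM was 79.6 and 89.2 in CCR7hiCD137lo and 27.8 and 27.9 in CCR7loCD137hi. Both high values belonged to the CCR7-rich population, and the groups did not overlap. The mean was 84.4 ± 6.79 FPKM against 27.9 ± 0.0822 FPKM (SD, n = 2 each), a ratio of 3.03, and the log2 difference was -1.56 (SE 0.12), with -1.48 and -1.64 by replicate number. Among the 10496 tested genes, 0.429% had a lower difference, and the gene stood at rank 867 in CCR7hiCD137lo and 2728 in CCR7loCD137hi. The estimated fragments behind these values were 2499, 1766, 493 and 269.

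Ms4a4d, the remaining gene of the 4 series, was close to the limit of detection. Its FPKM was 0.537 and 0.609 in the CCR7hiCD137lo pair, against 0.340 and 0.376 in the CCR7loCD137hi pair. The order was that of the other members, but the values rest on an estimated 14 and 10 fragments against 5 and 3. Exact Poisson 95% intervals of single libraries overlapped, from 0.294 to 0.902 and 0.292 to 1.12 FPKM in CCR7hiCD137lo, and from 0.110 to 0.793 and 0.0775 to 1.10 FPKM in CCR7loCD137hi. These intervals cover counting error only. A difference in Ms4a4d was not detectable at this depth, and its mean under 1 FPKM kept it out of the fit over all genes.

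Ms4a6b, the abundant gene of the 6 series, had 253.0 and 237.3 FPKM in the CCR7hiCD137lo pair, and 148.8 and 161.8 FPKM in the CCR7loCD137hi pair. The libraries of the populations did not overlap. Mean levels were 245.1 ± 11.1 and 155.3 ± 9.16 FPKM (SD, n = 2 each), 1.58 times as high in CCR7hiCD137lo, with a log2 difference of -0.66 (SE 0.12). The difference was -0.76 by the libraries numbered 1 and -0.55 by those numbered 2. In rank the gene stood at 251 and 430 of the tested genes in CCR7hiCD137lo and CCR7loCD137hi.

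Ms4a6d, a macrophage member of the family that is read from the other strand, had 16.5 and 18.7 FPKM in the CCR7hiCD137lo pair, and 9.32 and 9.67 FPKM in the CCR7loCD137hi pair. Again both CCR7loCD137hi libraries were the lower. The log2 difference was -0.82 (SE 0.14), a 1.85-fold ratio of means, and 0.886% of tested genes had a lower one. An estimated 397, 285, 127 and 72 fragments lie behind these levels.

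Ms4a6c had the widest spread for its difference. The CCR7hiCD137lo pair had 24.2 and 29.0 FPKM, the CCR7loCD137hi pair 18.2 and 15.6 FPKM. The groups did not overlap, but CCR7hiCD137lo replicate 1 and CCR7loCD137hi replicate 1 lay near each other. The log2 difference was -0.62 (SE 0.16), with -0.39 by the libraries numbered 1 and -0.86 by those numbered 2. The smaller of these was 1.52 times the larger difference between replicates, against 11.2 times for Ms4a4b, 9.14 for Ms4a4c, 4.60 for Ms4a6b, 4.34 for Ms4a6d and 3.03 for Ms4a4d.

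In all, 6 of 6 members had both CCR7loCD137hi libraries below both CCR7hiCD137lo libraries. Among the members tested, which leave out Ms4a4d, it was 5 of 5, where 21.5% of the 10496 genes tested had that order. Of the 5 members tested with limma, 0 passed an adjusted p of 0.05, where 0.0572% of tested genes did in either direction and 0.00953% with the lower level in CCR7loCD137hi. By an unadjusted p under 0.05, 5 of 5 were lower, where 3.49% of tested genes were. The members were proposed from this contrast for their lower levels, which fixed the direction of these counts in advance. Nothing is read from them.

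Ratios between members within a library do not depend on how libraries were scaled to each other. Ms4a4c stood at 11.7 and 13.6% of Ms4a4b in the CCR7hiCD137lo libraries and at 6.95 and 7.31% in the CCR7loCD137hi libraries, so these related genes differed unequally. Ms4a4b relative to Ms4a6b was 269.3 and 276.0% against 269.3 and 236.2%. Ms4a6c relative to Ms4a6b was 9.55 and 12.2% against 12.2 and 9.63%, and the populations overlapped in that ratio. Ms4a6d relative to Ms4a6b was 6.503 and 7.88% against 6.27 and 5.98%, apart by less than the difference between the CCR7hiCD137lo replicates.

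**Figure D2:**
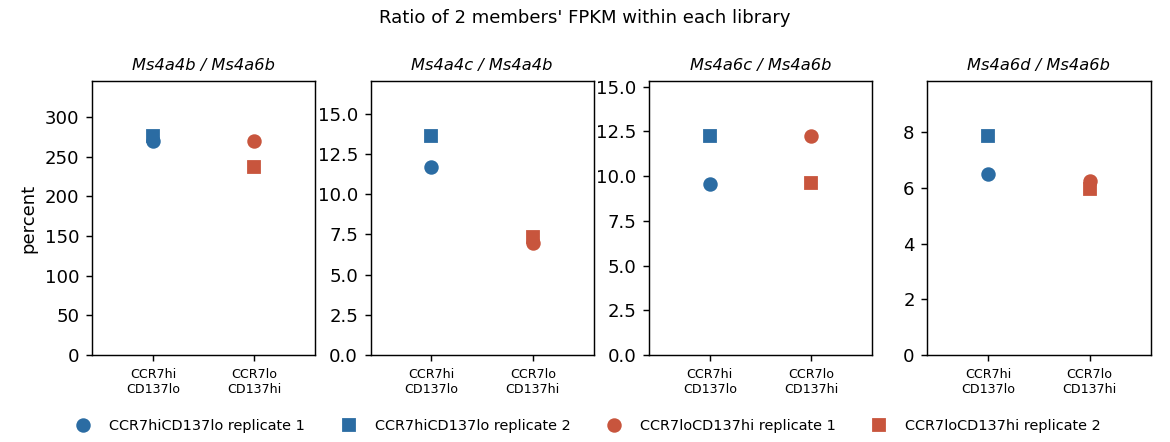
Ratio of FPKM of 2 Ms4a genes within each library, in percent, with 1 panel per pair and each axis starting at 0. The ratio of Ms4a4c to Ms4a4b is 11.7 and 13.6% in CCR7hiCD137lo against 6.95 and 7.31% in CCR7loCD137hi, while the ratio of Ms4a6c to Ms4a6b overlaps between the populations.

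Reads of near-identical stretches could have been divided among relatives, since no source used here says how such reads were treated. Of the 50-nt words in the Ms4a4c transcript (GENCODE vM21), 134 of 1674 also occur in that of Ms4a4b, and 2.85% of those of Ms4a4b occur in Ms4a4c. Ms4a6b shared 6.11% of its words with Ms4a6c and 2.44% with Ms4a6d, and Ms4a4c shared 0.478% with Ms4a4d. Gm8369 shared 0 such words with any member. Most words of each transcript were thus absent from the other transcripts compared, those of the members and Gm8369. Other transcripts were not compared, and the Ms4a4b transcript used does not have the ends of its entry.

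The pattern of a gene over the 4 libraries was compared with that of 7881 genes at a mean of at least 5 FPKM, as the Euclidean distance between log2(FPKM + 1) values centred on the gene's mean. This is a description over 4 libraries that differ mainly by group. Nearest to Ms4a4c was Ccr7 itself (distance 0.199), one of the genes of the sort, then Tnfsf8, which encodes the ligand of CD30 (0.232), and P2rx7, an ATP-gated ion channel (0.307). Tnfsf8 stood at 29.0 and 34.1 FPKM in CCR7hiCD137lo against 12.3 and 10.8 FPKM in CCR7loCD137hi. Its log2 difference was -1.37, against -1.41 for Ccr7 and -1.56 for Ms4a4c.

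Among the genes nearest to Ms4a4b were Foxp1, a transcription factor of T cell quiescence (0.0784), and the ubiquitin ligase gene Pja2 (0.0862). Foxp1 was at 26.9 and 27.5 FPKM in CCR7hiCD137lo against 15.4 and 14.7 FPKM in CCR7loCD137hi, and its log2 difference was -0.81, against -0.77 for Ms4a4b. Ms4a6b lay nearest to Rabgap1l (0.0463), Lphn1, an adhesion receptor (0.0647), and Spc25, a kinetochore subunit (0.0708). Ms4a6d lay nearest to Mylpf, a myosin light chain (0.0575), Gbp9, of the interferon-induced guanylate-binding proteins (0.0938), and Top2a, the topoisomerase of dividing cells (0.121). Ms4a6c lay nearest to Gm6904 (0.0520), Nanp, of sialic acid synthesis (0.0637), and Birc6, an inhibitor of apoptosis (0.119). No 2 members shared any of these genes.

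Among the members themselves, Ms4a4b and Ms4a6b were the closest pair (0.177), followed by Ms4a4b and Ms4a6d (0.190). Ms4a4c lay 0.741 to 0.954 from the others, so the largest difference between the populations set it apart. The Ms4a4b promoter resembled that of Ms4a4c, while the Ms4a4b level ran nearest to that of Ms4a6b, with Ms4a6d close behind. These distances rest on the levels by which the members were chosen. A link between pattern and promoter was not tested.

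**Figure D3:**
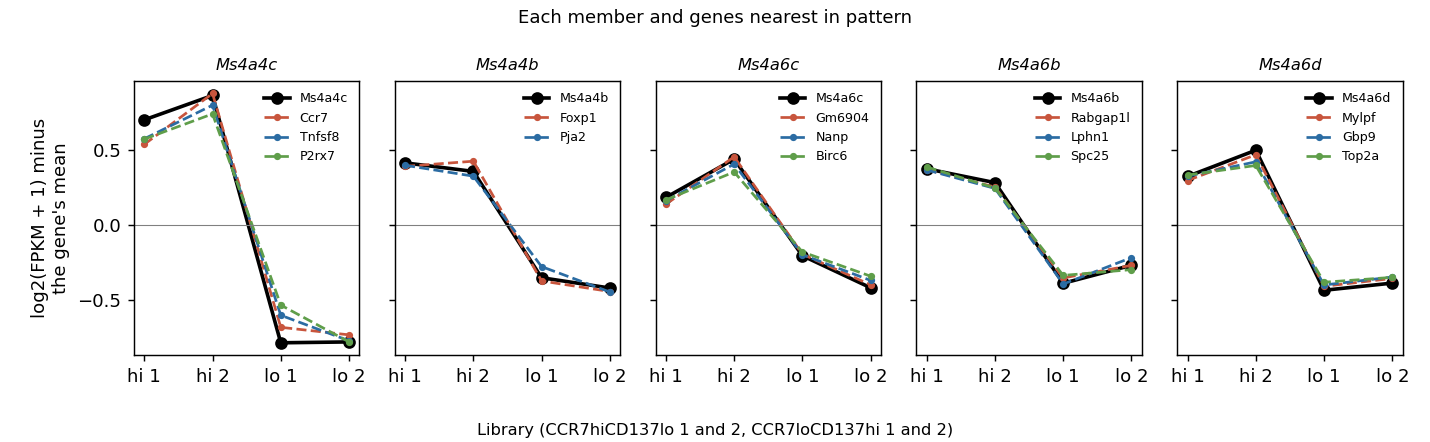
Level of each of the 5 tested Ms4a genes (black) and of genes nearest to it in pattern (dashed), as log2(FPKM + 1) minus the gene's mean, over CCR7hiCD137lo replicates 1 and 2 (hi) and CCR7loCD137hi replicates 1 and 2 (lo). Ms4a4c and its neighbours Ccr7, Tnfsf8 and P2rx7 span the widest range, and the genes nearest to the other members differ less between the populations.

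The rest of the family was almost silent. Of the 10 other Ms4a symbols, 5 (Ms4a2, Ms4a5, Ms4a10, Ms4a13 and Ms4a18) were at 0 in every library, and no other reached 1 FPKM anywhere. Ms4a1 was at 0.647 FPKM in CCR7loCD137hi replicate 1, the library with the higher B cell markers, and at 0 in the rest. The more distant relatives Tmem176a and Tmem176b are membrane proteins of dendritic cells and some T helper cells. Tmem176a was at 0.675 and 1.23 FPKM in CCR7hiCD137lo and 2.65 and 6.43 FPKM in CCR7loCD137hi, with groups that did not overlap (log2 difference 1.43, SE 0.41, limma adjusted p = 0.534). Tmem176b was at 0.896 and 2.84 against 2.26 and 6.94 FPKM, which overlapped (0.92, SE 0.57, limma adjusted p = 0.753). Of these 2 tested relatives, 0 were called, where 0.0572% of tested genes were. At an unadjusted p under 0.05 in limma, 1 was higher, where 4.64% of tested genes were.

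Genes around and between the members were measured in the same way. There were 15 of them, 6 were tested, and 0 passed an adjusted or an unadjusted p of 0.05 in limma. Of all tested genes, 0.0572% passed the adjusted p, and by the unadjusted p 3.49% were lower and 4.64% higher. The neighbours had a median log2 difference of -0.01, beside -0.01 over all tested genes. The neighbours' median was -0.13 without CCR7loCD137hi replicate 1, 0.33 without its replicate 2 and 0.22 without CCR7hiCD137lo replicate 1. Gm8369, which lies between Ms4a6c and Ms4a6b and has a promoter like those of Ms4a4b and Ms4a4c, was at 6.94 and 12.9 FPKM in CCR7hiCD137lo and 6.92 and 10.1 FPKM in CCR7loCD137hi. The populations overlapped (log2 difference -0.16, SE 0.34, limma adjusted p = 0.930). AW112010, an abundant transcript between the silent Ms4a genes, was at 157.2 and 150.9 against 240.0 and 160.3 FPKM (0.35, SE 0.22, limma adjusted p = 0.757). Both CCR7loCD137hi libraries were higher for it. The last gene before the cluster, Ccdc86, was at 11.2 and 6.71 against 13.2 and 5.75 FPKM (limma adjusted p = 0.998). The first gene after it, Plac1l, was at 0 in 3 libraries and at 0.164 FPKM in CCR7hiCD137lo replicate 2. Gm8369 and AW112010 were chosen for their place after their values were seen.

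**Figure D4:**
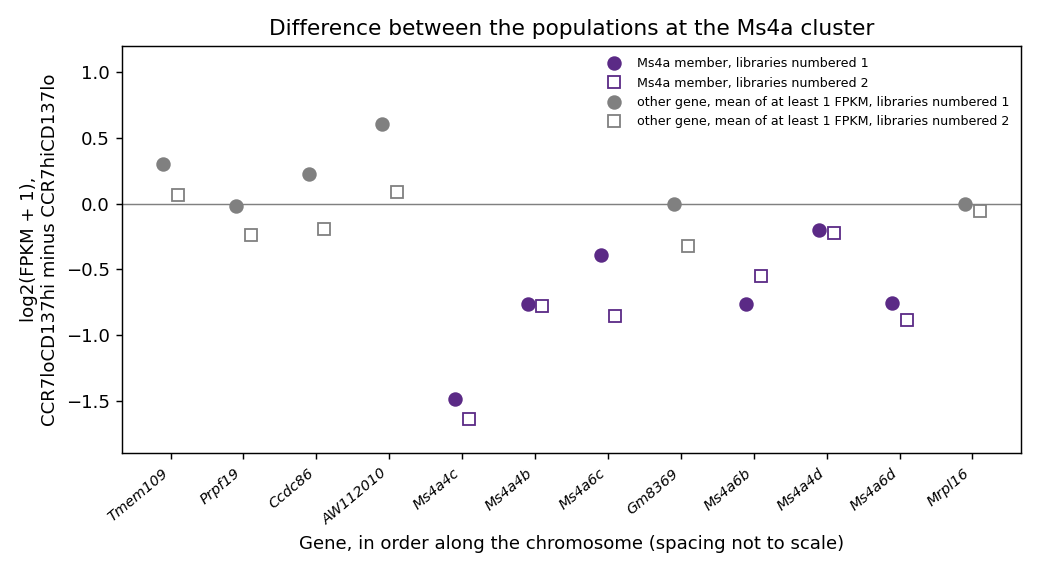
Difference in log2(FPKM + 1), CCR7loCD137hi minus CCR7hiCD137lo, for the Ms4a members (purple) and the other genes of the cluster and its flanks with a mean of at least 1 FPKM (grey), in chromosomal order; circles are the libraries numbered 1 and squares those numbered 2. Members, which were chosen for lower levels in CCR7loCD137hi, lie below 0 for both numbers, from -0.20 (Ms4a4d) to -1.64 (Ms4a4c). Gm8369 among them lies at -0.004 and -0.32, and Ms4a4d at -0.20 and -0.23.

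Interferon-induced genes were examined because several Ms4a genes belong to that response in myeloid cells. Of 33 genes in the list, 23 were tested and 0 were called by limma after adjustment, where 0.0572% of all tested genes were. At an unadjusted p under 0.05, 4 had lower levels in CCR7loCD137hi and 0 higher, where 3.49% and 4.64% of all tested genes were. Of the 23, 14 had both CCR7loCD137hi libraries lower and 1, Isg15, both higher, where those shares were 21.5% and 16.6% of all tested genes. Of the other 10, below 1 FPKM on average, 4 had both higher (Mx1, Oasl1, Oasl2 and Rsad2, named after their values were seen) and 6 overlapped. The median log2 difference of the 23 was -0.33, beside -0.01 over all tested genes, and 20 of them were fitted below 0. No test of the list as such was made.

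The most abundant genes of that list were Igtp, an interferon-induced GTPase of defence against intracellular parasites, and Gbp4, a guanylate-binding protein. Igtp was at 350.7 and 387.5 FPKM in CCR7hiCD137lo against 318.5 and 285.7 FPKM in CCR7loCD137hi (log2 difference -0.29, SE 0.13, limma adjusted p = 0.656). Gbp4 was at 163.5 and 154.7 against 142.9 and 126.0 FPKM (-0.24, SE 0.13, limma adjusted p = 0.718). Both had lower values in both CCR7loCD137hi libraries.

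GITR, the receptor with which Ms4a4b is known to associate, is a costimulatory receptor of activated and regulatory T cells. Its gene Tnfrsf18 had 142.3 and 183.0 FPKM in the CCR7hiCD137lo pair, against 264.3 and 270.3 FPKM in the CCR7loCD137hi pair. The populations did not overlap, and the log2 difference was 0.72 (SE 0.16, limma adjusted p = 0.431). Tnfsf18, the GITR ligand, was at 0 in every library. Of the adapters, Traf1 was at 35.1 and 45.5 against 46.4 and 39.0 FPKM, which overlapped (0.09, SE 0.19, limma adjusted p = 0.930). Of the 7 genes in this list, 6 were tested and 0 were called, where 0.0572% of all tested genes were. At an unadjusted p under 0.05 in limma, 1 was higher and 0 lower, where 4.64% and 3.49% of all tested genes were. In 2 of the 6 both CCR7loCD137hi libraries were higher and in 2 both lower, beside 16.6% and 21.5% of all tested genes. The median log2 difference was 0.05, beside -0.01 over all tested genes. It was -0.11 without CCR7hiCD137lo replicate 1, 0.18 without its replicate 2 and -0.03 without CCR7loCD137hi replicate 1.

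Markers of other cells were followed because several Ms4a genes are known from myeloid cells. Of 13 myeloid and dendritic markers listed, 12 were measured, and Csf1r, Fcgr1 and Siglech were at 0 in every library. None had both CCR7loCD137hi libraries lower, 5 had both higher, and 7 overlapped. Over all tested genes, 21.5% had both lower and 16.6% both higher, but most of these markers were under 1 FPKM and outside that set. The sum was 45.5 to 47.6 FPKM in CCR7hiCD137lo and 66.5 to 66.6 FPKM in CCR7loCD137hi. Cst3, a widely expressed protease inhibitor, made up 44.6 to 63.4 FPKM of it, and the other 11 summed to 0.868 to 2.06 FPKM in CCR7hiCD137lo and 3.02 to 3.99 FPKM in CCR7loCD137hi, with Cd68 the highest. The part of these markers in the Ms4a levels was not tested.

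Lists for other lymphocytes differed in how far they followed the groups. Beside the counts given here, 16.6% of all tested genes had both CCR7loCD137hi libraries higher and 21.5% both lower. Some of the markers were under 1 FPKM on average and outside that set. B cell markers (7 of 7 measured, led by Cd79b and Cd79a) summed to 0.0917 and 0.145 FPKM in CCR7hiCD137lo and 5.30 and 0.571 FPKM in CCR7loCD137hi. Of these, 4 were higher in both CCR7loCD137hi libraries, 0 were lower and 3 overlapped. CD8 T and NK cell markers (6 of 6, led by Eomes and Cd8b1) summed to 12.7 and 23.7 against 49.5 and 38.9 FPKM, and 5 of them were higher in both CCR7loCD137hi libraries. Regulatory T cell markers (6 of 6, led by Il2ra and Ctla4) summed to 559.8 to 586.1 FPKM in CCR7hiCD137lo and 447.8 to 761.2 FPKM in CCR7loCD137hi, which overlapped. Il2ra made up most of that sum, at 537.9 and 518.4 against 548.8 and 345.5 FPKM. Of the 6 markers, 3 were higher in both CCR7loCD137hi libraries and 3 overlapped. Foxp3, their defining gene, was at 0.853 and 0.181 against 47.9 and 10.97 FPKM. Th1 genes (5 of 5, led by Il18r1 and Ifng) summed to 210.3 and 269.7 against 411.1 and 277.3 FPKM. Ifng was at 15.3 and 27.8 against 214.8 and 90.8 FPKM, whereas Il18r1 was at 94.1 and 103.1 against 80.5 and 77.6 FPKM. In all, 1 Th1 gene was higher in both CCR7loCD137hi libraries, 2 were lower and 2 overlapped. The part of these lists was not tested either. Without CCR7loCD137hi replicate 1, where each of these 4 sums was highest, the log2 difference was -0.80 for Ms4a4b, -1.56 for Ms4a4c, -0.60 for Ms4a6b, -0.73 for Ms4a6c and -0.80 for Ms4a6d.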

How the data were processed

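Polyadenylated RNA of 2 CCR7hiCD137lo and 2 CCR7loCD137hi libraries was analysed from gene tables. The FPKM values were computed by the authors and deposited as 1 table per library, with the columns of a Cufflinks gene table per the file headers. Bowtie 0.12.8, TopHat 1.3.2, Cufflinks 2.0.2 and mm10 are named in the submitters' processing notes; the annotation, the use of strand and the treatment of multiply mapped reads are not stated there, in the labels or in the files. Each table held 23746 entries of 23284 symbols, and a repeated symbol was represented by its entry with the highest mean.

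Genes with a mean of at least 1 FPKM (10496) were fitted with limma 3.58.1 in R 4.3.3 on log2(FPKM + 1) with a variance trend, two-sided, Benjamini-Hochberg adjustment and a threshold of 0.05. Residual degrees of freedom were 2 and prior ones 2.54, and an exact permutation test of 2 against 2 cannot give a two-sided p under 0.333. The fit was tested on simulated data that gave every gene the same spread and larger changes than those of the members. How well it finds changes of the members' size was not tested. Depth was estimated from low values (under 0.3 FPKM): 64.3 to 65.9% of their ratios to CCR7hiCD137lo replicate 1 lay within 0.002 (natural log) of a ratio of whole fragments. Absolute depth assumes fragments of 200 nt and is approximate. Sequences came from RefSeq and GENCODE on the same build.

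The members and lists were chosen with earlier results of these data known. Named were the members, relatives of at least 1 FPKM in either group, the nearest gene on each side, called genes and the 2 most expressed of each list, the 3 genes nearest in pattern to each tested member, and Ccr7 and Tnfrsf9. The results of 1 gene that this rule names are not reported here. In all, 13 alternatives were computed.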

Additional observations from a re-analysis of the deposited data

How the results depend on the processing

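The number of genes called among all genes was 6, and 5 were higher in CCR7loCD137hi and 1 lower. It was 1 with no filter on low values, 2 with no variance trend and 2 with quantile normalization. Leaving out 1 library gave 20 to 49 calls: 20 without CCR7hiCD137lo replicate 1, 49 without its replicate 2, 25 without CCR7loCD137hi replicate 1 and 33 without its replicate 2, with the lone library assumed to vary like the pair. The cause of these changes was not tested. The labels do not say what a shared replicate number means, and there are 2 pairs. Deviations of same-numbered libraries from their group means had a correlation of 0.21 (Pearson, 10496 genes, which are not independent). With the replicate number as a block, 42 of the 10496 genes were called, and Ms4a4c was the 1 member called. In every other setting 0 members were called, and nothing is read from these counts of chosen genes. Calls in the family, neighbour, interferon and GITR lists were 0 under every alternative, block included. The family list had 2 tested genes in the main fit, and with a minimum mean of 5 FPKM it had none that could be called. No Ms4a difference changed direction, but most alternatives could not have reversed one. The members' groups did not overlap, so neither another pseudocount nor leaving out 1 library can change the sign. The block and the sum of entries left each member's estimate as it was. Over the alternatives the log2 difference ran from -1.64 to -1.48 for Ms4a4c, -0.88 to -0.74 for Ms4a4b, -0.72 to -0.60 for Ms4a6b, -0.91 to -0.73 for Ms4a6d, -0.75 to -0.49 for Ms4a6c and -0.55 to -0.18 for Ms4a4d, where the lowest came with a pseudocount of 0.1. Quantile and median ratio scaling were not run for Ms4a4d, which is under the filter on low values. List medians ran from -0.42 to -0.19 for the interferon list, -0.13 to 0.33 for the neighbours, -0.11 to 0.18 for the GITR list and 0.18 to 1.75 for the other family genes. With 150 bases before the start alone, 1 of 6 promoters held any motif searched, against 2 in the full window. Identity between member proteins was planned and not run. Depth limits Ms4a4d, which rests on 3 to 14 estimated fragments per library.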

Other observations

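Ms4a2, the IgE receptor beta chain gene, was at 0 in every library, but other mast cell and basophil genes were not. Cpa3, a mast cell protease, was listed at 0 for both CCR7hiCD137lo libraries but had 0.892 and 2.15 FPKM in the CCR7loCD137hi pair. Mcpt8, a basophil protease, was at 0 in both and then at 0.406 and 0.249 FPKM. Fcer1a, the alpha chain of the same IgE receptor, was at 0 in both and then at 0.209 and 0.384 FPKM. Kit, the stem cell factor receptor, was found in all libraries, at 5.49 and 1.72 against 3.16 and 1.08 FPKM. These levels are low, and 3 fragments of a transcript of 1 kb correspond to 0.146, 0.231, 0.258 and 0.475 FPKM in these libraries.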
